A study of Rattus norvegicus with 24 samples.

Results

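Transcripts of neurogenesis and cell proliferation genes were followed in whole hippocampus of growth hormone (GH)-deficient and control rats. The set was chosen by name and held 10 genes: Dcx, Neurod1, Sox2, Nes, Prox1, Mki67, Mcm2, Pcna, Ccnd1 and Ccnd2. Every probe annotated with one of these symbols was taken, which gave 1 probe for each of 9 genes among 22226 probes on the Illumina rat array. No probe was named for Dcx (doublecortin), which was not analysed here. Of the 9 probes, 7 passed the filter on dim probes (a detection p-value under 0.05 on at least 4 arrays) and were among the 11487 probes tested, while Nes and Ccnd2 did not.

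The 24 arrays held the hippocampal RNA of 24 rats of the strain HsdOla:DWARF-dw-4, with 4 rats in each of 6 groups. Homozygous dw/dw rats, which are GH deficient, were injected subcutaneously with 300 µg GH or with saline from postnatal day 35, and heterozygous (HZ) rats, which carry a dw allele too, received saline. Tissue was taken after 7 days, at 42 days of age, or after 30 days, at 65 days of age. No HZ rats given GH were analysed here, so the effect of GH was measured in dw/dw rats only. The 7-day arrays lay on a slide of their own and so did the 30-day arrays, so age and slide cannot be told apart. Within either slide, positions 1 to 4 were taken by saline-treated dw/dw rats, positions 5 to 8 by GH-treated dw/dw rats and positions 9 to 12 by HZ rats, so a shared effect of position cannot be told apart from the group. The arrays detected 44.9% to 51.2% of their probes. Of 12 listed markers of hippocampal neurons, 9 had a named probe and all 9 were detected on 24 arrays, among them Slc17a7, Neurod6 and Camk2a.

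New granule neurons are born through life in the dentate gyrus of the rodent hippocampus. Radial glia-like stem cells give rise to dividing intermediate progenitors, whose daughters become neuroblasts and then granule neurons, and division falls off as the animal matures. Dividing cells start replication in the G1 and S phases with D-type cyclins and replication proteins, and later make mitotic regulators. GH and the insulin-like growth factor 1 that it induces are known to act on cell division in many tissues. The stem cell and neuronal genes of the set are Sox2 and Nes (stem cells), Neurod1 (a basic helix-loop-helix factor of late progenitors and young neurons) and Prox1 (a homeobox factor of granule neurons). The cell cycle genes are Ccnd1 and Ccnd2 (D-type cyclins), Mcm2 (a subunit of the replicative helicase), Pcna (the sliding clamp of DNA polymerase) and Mki67 (the nuclear antigen Ki-67 of cycling cells).

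A promoter was on hand for 7 of the 10 genes in a RefSeq table of the rat build GRCr8, running from 250 bases before the start of the gene to the first 50 bases of it. Those of Mki67 and of the mitotic genes Ccnb2 and Cdc20 are shown. They are the 3 genes of a G2 and mitosis list that passed the threshold between the ages. Each was lower at the older age in the mean of the 3 groups. Genes of other lists also passed between the ages, and their promoters are not shown. The matches below therefore do not describe the called genes as a whole. Whether Mki67, Ccnb2 and Cdc20 share a regulation was not tested. Capitals mark CCAAT, a box that the factor NF-Y binds, and TTTGAA or TTCGAA, letters of the cell cycle genes homology region (CHR), searched on both strands. The promoter of Neurod1, the member that passed the threshold between the ages within 1 group, is shown with the E-box CANNTG, the letters that basic helix-loop-helix factors bind, in capitals. They lie at chr1:199952544-199952843 (Mki67), chr8:79981609-79981908 (Ccnb2), chr5:137255750-137256049 (Cdc20) and chr3:84770405-84770704 (Neurod1), all on the minus strand, and each is written 5′ to 3′ along its gene.
Mki67: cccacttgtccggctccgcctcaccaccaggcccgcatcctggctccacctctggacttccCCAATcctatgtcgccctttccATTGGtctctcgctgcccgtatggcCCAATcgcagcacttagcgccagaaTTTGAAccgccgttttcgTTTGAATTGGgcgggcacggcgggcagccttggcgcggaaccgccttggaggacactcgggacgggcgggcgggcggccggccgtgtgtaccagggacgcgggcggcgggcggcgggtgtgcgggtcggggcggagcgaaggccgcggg
Ccnb2: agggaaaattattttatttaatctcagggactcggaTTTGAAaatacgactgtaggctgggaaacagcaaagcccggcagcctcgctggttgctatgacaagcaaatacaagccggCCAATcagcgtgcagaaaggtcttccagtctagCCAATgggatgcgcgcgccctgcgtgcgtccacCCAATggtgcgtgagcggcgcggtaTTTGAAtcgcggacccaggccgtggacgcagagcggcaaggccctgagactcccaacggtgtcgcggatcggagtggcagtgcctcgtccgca
Cdc20: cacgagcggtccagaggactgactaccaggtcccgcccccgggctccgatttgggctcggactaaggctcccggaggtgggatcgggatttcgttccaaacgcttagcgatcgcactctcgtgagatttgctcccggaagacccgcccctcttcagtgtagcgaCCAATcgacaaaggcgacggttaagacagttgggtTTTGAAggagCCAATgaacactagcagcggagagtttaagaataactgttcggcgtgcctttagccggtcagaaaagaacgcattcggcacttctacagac
Neurod1: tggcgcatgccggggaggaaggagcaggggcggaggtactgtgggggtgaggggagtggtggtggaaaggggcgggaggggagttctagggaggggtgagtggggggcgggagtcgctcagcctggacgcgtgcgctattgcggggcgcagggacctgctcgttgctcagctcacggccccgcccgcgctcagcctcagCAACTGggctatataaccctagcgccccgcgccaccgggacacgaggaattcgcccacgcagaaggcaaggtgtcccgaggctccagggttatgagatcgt
The Mki67 promoter held 4 CCAAT boxes and 2 TTTGAA elements, and the last of each, on opposite strands, share 1 base. Ccnb2 had 3 and 2 of these matches, and Cdc20 had 2 and 1. TTCGAA was found in none of these 3 promoters. Among 33469 RefSeq promoters of the same length, 37.5% held CCAAT, 18.3% held TTTGAA, 1.69% held TTCGAA and 7.95% held CCAAT with either CHR form. Among the promoters of 6669 tested genes the share with CCAAT and either form was 5.14%. The Neurod1 promoter held 1 E-box, as did 72.1% of all promoters at least once, and neither CCAAT nor a CHR form. Of the other members, Sox2 had CCAAT and TTTGAA once each, Mcm2 had TTTGAA at 2 places without CCAAT, Pcna and Dcx had CCAAT once each, and Nes had none of these.

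Levels are normalized log2 signals, and they are compared between groups for the same probe only. Probes detected on no array had a median log2 signal of 6.03. Prox1, Mki67 and Mcm2 were detected on all 24 arrays but lay close to this background, with means over all arrays of 6.17, 6.14 and 6.20. On this part of the scale the background correction and its offset draw differences towards 0. Sox2, Ccnd1, Neurod1 and Pcna were brighter, with means of 7.11, 7.75, 8.42 and 9.76, and were detected on all 24 arrays. Nes was detected on 3 of 24 arrays, 1 each in HZ at 7 days, HZ at 30 days and dw/dw saline at 30 days, and its log2 signal lay between 6.05 and 6.11. Ccnd2 was detected on 0 of 24 arrays, with log2 signals between 6.02 and 6.08. These 2 probes were not well above background, and no difference is given for them.

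Neither GH deficiency nor GH treatment changed a tested member past the threshold at either age. In the comparison of dw/dw saline with HZ saline, of dw/dw GH with dw/dw saline and of dw/dw GH with HZ saline, at 7 and at 30 days, 0 of 7 members were called (limma with Benjamini-Hochberg adjustment over 11487 probes, threshold 0.05), and 0% of all tested probes were. At an unadjusted p under 0.05 the count for deficiency was 1 of 7 members at 7 days (758 probes, 6.6%) and 1 at 30 days (820 probes, 7.14%). For GH against saline it was 1 at 7 days (534 probes, 4.65%) and 1 at 30 days (386 probes, 3.36%), and for dw/dw GH against HZ it was 0 at both ages (466 and 630 probes, 4.06% and 5.48%). The member was Neurod1 in all 4 cases. Groups did not overlap for 1 of 7 members for deficiency at 30 days (4.34% of tested probes). In the other 5 comparisons within an age the members' count was 0, against 2.81% for deficiency at 7 days, 3.12% and 2.32% for GH at 7 and 30 days, and 2.39% and 3.19% for GH-treated dw/dw against HZ rats. Members had a median log2 difference of 0.0040 for deficiency at 7 days and 0.0069 at 30 days, against 0.0018 and 0.0021 over all probes. For GH against saline the member medians were 0.018 at 7 days and -0.012 at 30 days, against -0.00051 and -0.00045.

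**Figure D1:**
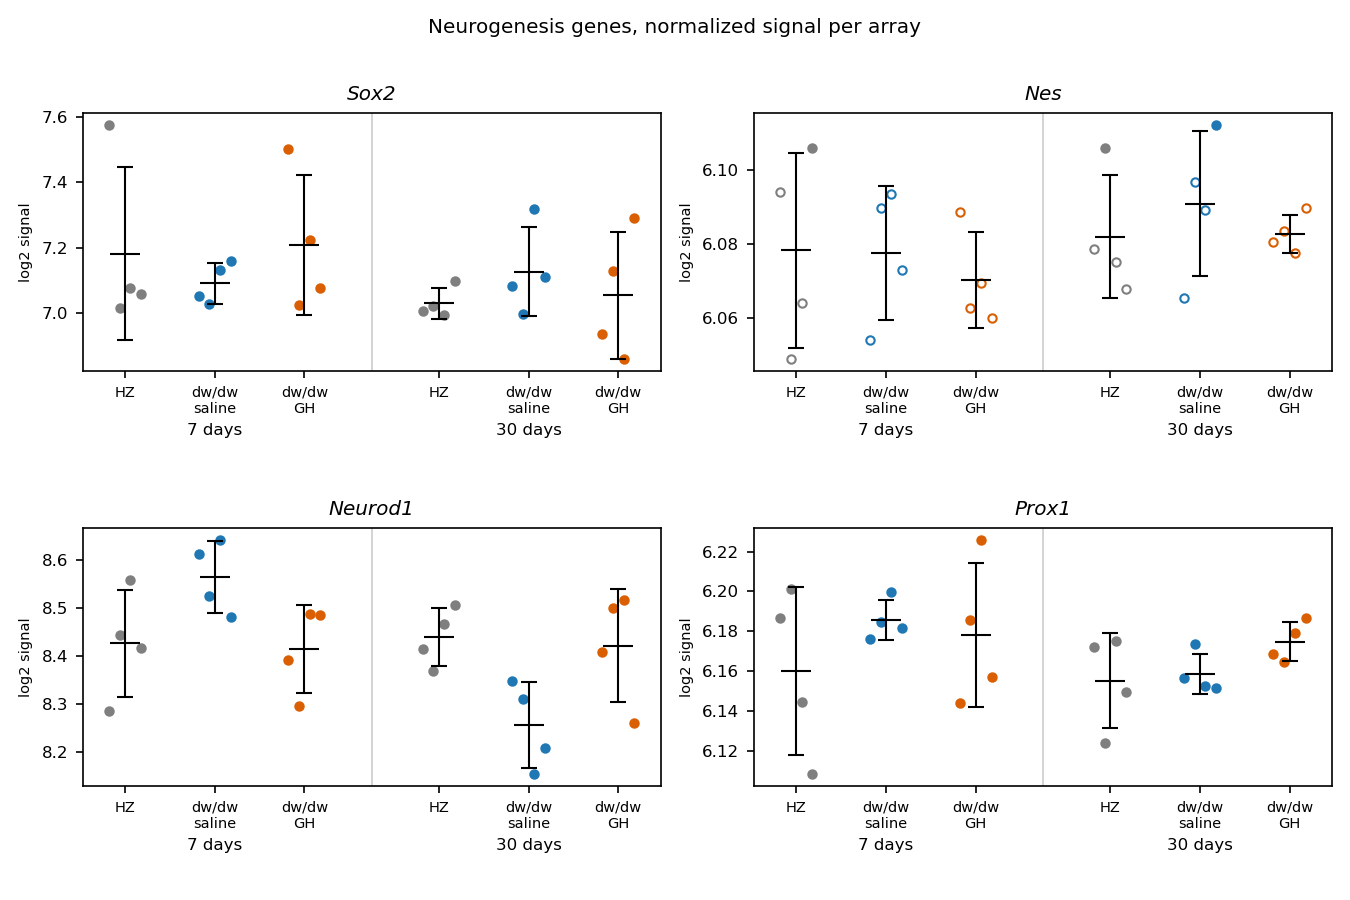
Normalized log2 signal (vertical axes, each probe on its own scale) of Sox2, Nes, Neurod1 and Prox1 on every array, by group and time point, with the mean and SD of 4 rats as black bars; filled points were detected (detection p-value under 0.05) and open points were not. The dw/dw saline rats had the highest group mean of Neurod1 at 7 days (8.56) and the lowest at 30 days (8.26), and Nes was open on 21 of 24 arrays.

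Neurod1, which drives neuronal differentiation, had deficiency and GH differences whose signs at 7 days were opposite to those at 30 days, none of them past the threshold. At 7 days its log2 signals were 8.29, 8.44, 8.56 and 8.42 in HZ, 8.61, 8.52, 8.64 and 8.48 in saline-treated dw/dw and 8.39, 8.30, 8.49 and 8.48 in GH-treated dw/dw rats. The dw/dw saline values lay at the upper end, overlapped HZ, and overlapped the dw/dw GH values only around 8.48. At 30 days they were 8.41, 8.37, 8.47 and 8.51 in HZ, 8.35, 8.31, 8.15 and 8.21 in saline-treated dw/dw and 8.41, 8.50, 8.52 and 8.26 in GH-treated dw/dw rats. Here all 4 dw/dw saline rats lay below all 4 HZ rats, and they overlapped the GH group through 1 GH rat. The group means at 7 days were 8.43 ± 0.11 in HZ, 8.56 ± 0.07 in saline-treated dw/dw and 8.42 ± 0.09 in GH-treated dw/dw rats, and at 30 days 8.44 ± 0.06, 8.26 ± 0.09 and 8.42 ± 0.12 (SD, n = 4).

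The deficiency difference in Neurod1 was 0.14 at 7 days (SE 0.063, 95% confidence interval 0.0060 to 0.27, limma adjusted p = 0.732), and 0.092 without HZ replicate 1. At 30 days it was -0.18 (SE 0.063, -0.32 to -0.051, limma adjusted p = 0.630). The GH difference ran the other way, at -0.15 at 7 days and 0.17 at 30 days (SE 0.063, limma adjusted p of 0.9999 and 0.9996). The dw/dw GH rats and the HZ rats differed by -0.011 and -0.017, with adjusted p of 0.999 and 0.992. Deficiency and GH comparisons use the same dw/dw saline arrays, so opposite signs in the 2 are not separate observations. The change of the deficiency difference between the ages was -0.32 (SE 0.090, limma adjusted p = 0.995) and that of the GH difference 0.32 (SE 0.090, adjusted p = 0.707). Neither passed the threshold, and 0 of 7 members and 0% of probes were called in these interaction comparisons. At an unadjusted p under 0.05 Neurod1 was the 1 member of 7 in each, among 459 (4%) and 592 probes (5.15%).

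Within the dw/dw saline rats, Neurod1 fell by 0.31 on the log2 scale from 7 to 30 days (SE 0.063, limma adjusted p = 0.0162). All 4 older rats lay below all 4 younger ones, as 2 of 7 members did in this comparison against 9.19% of tested probes. Neurod1 was the 1 member of 7 called there, against 2.13% of probes, and 1.08% were called lower. In HZ rats the difference between the ages was 0.013 and in dw/dw GH rats 0.0068 (adjusted p of 0.943 and 0.977), and 0 of 7 members were called in either group against 2.3% and 0.871% of probes. A call in the saline group and none in the others does not show that the groups differed, and the interaction comparisons above, which test that difference, were not called. The call in dw/dw saline rats was lost without replicate 3 of the 7-day rats (-0.28, adjusted p = 0.0502), without replicate 3 of the 30-day rats (-0.27, adjusted p = 0.0517) and with median scaling in place of quantile normalization (-0.33, adjusted p = 0.524). Over all 3 groups the difference between the ages was -0.096 (SE 0.037, adjusted p = 0.0797). It passed without HZ replicate 1 of the 7-day rats (-0.11, adjusted p = 0.0409).

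Sox2, a transcription factor that keeps neural stem cells in their state and that astrocytes also express, did not differ past the threshold. At 7 days its log2 signals were 7.58, 7.01, 7.08 and 7.06 in HZ, 7.05, 7.03, 7.13 and 7.16 in saline-treated dw/dw and 7.50, 7.03, 7.22 and 7.08 in GH-treated dw/dw rats. At 30 days they were 7.00, 7.02, 6.99 and 7.10 in HZ, 7.08, 7.00, 7.32 and 7.11 in saline-treated dw/dw and 6.94, 7.13, 6.86 and 7.29 in GH-treated dw/dw rats. The groups overlapped in every comparison, and the highest values at 7 days came from 1 HZ and 1 dw/dw GH rat. The deficiency difference was -0.090 at 7 days (SE 0.12, adjusted p = 0.953) and 0.097 at 30 days (SE 0.12, adjusted p = 0.853), and the first was 0.041 without HZ replicate 1. The GH difference was 0.12 at 7 days and -0.073 at 30 days, with 95% confidence intervals of -0.13 to 0.36 and -0.32 to 0.17. Leaving out 1 array took them to between 0.017 (without dw/dw GH replicate 1) and 0.18 at 7 days, and to between -0.15 (without dw/dw GH replicate 4) and -0.0074 (without dw/dw GH replicate 3) at 30 days. The deficiency difference at 30 days was 0.034 without dw/dw saline replicate 3. On the HZ array with the highest Sox2 value the summed signals of the meninges, myelin and astrocyte marker lists were the highest of the 24 arrays, and that of hippocampal neuron markers ranked 22nd from the highest. The meninges sum mostly follows its brightest gene, Ptgds. The part of the tissue makeup in the Sox2 value was not tested.

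Prox1, which marks granule neurons, lay between 6.11 and 6.23 on all arrays. At 7 days its group means were 6.16 ± 0.04 in HZ, 6.19 ± 0.01 in saline-treated dw/dw and 6.18 ± 0.04 in GH-treated dw/dw rats, and at 30 days 6.16 ± 0.02, 6.16 ± 0.01 and 6.17 ± 0.01 (SD, n = 4). The differences for deficiency and GH lay between -0.0074 and 0.025 (SE 0.019) and all groups within a time point overlapped. The dw/dw saline rats had 6.176, 6.185, 6.200 and 6.182 at 7 days and 6.156, 6.173, 6.153 and 6.151 at 30 days. These do not overlap, but the difference of -0.027 (SE 0.019, adjusted p = 0.544) did not pass.

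**Figure D2:**
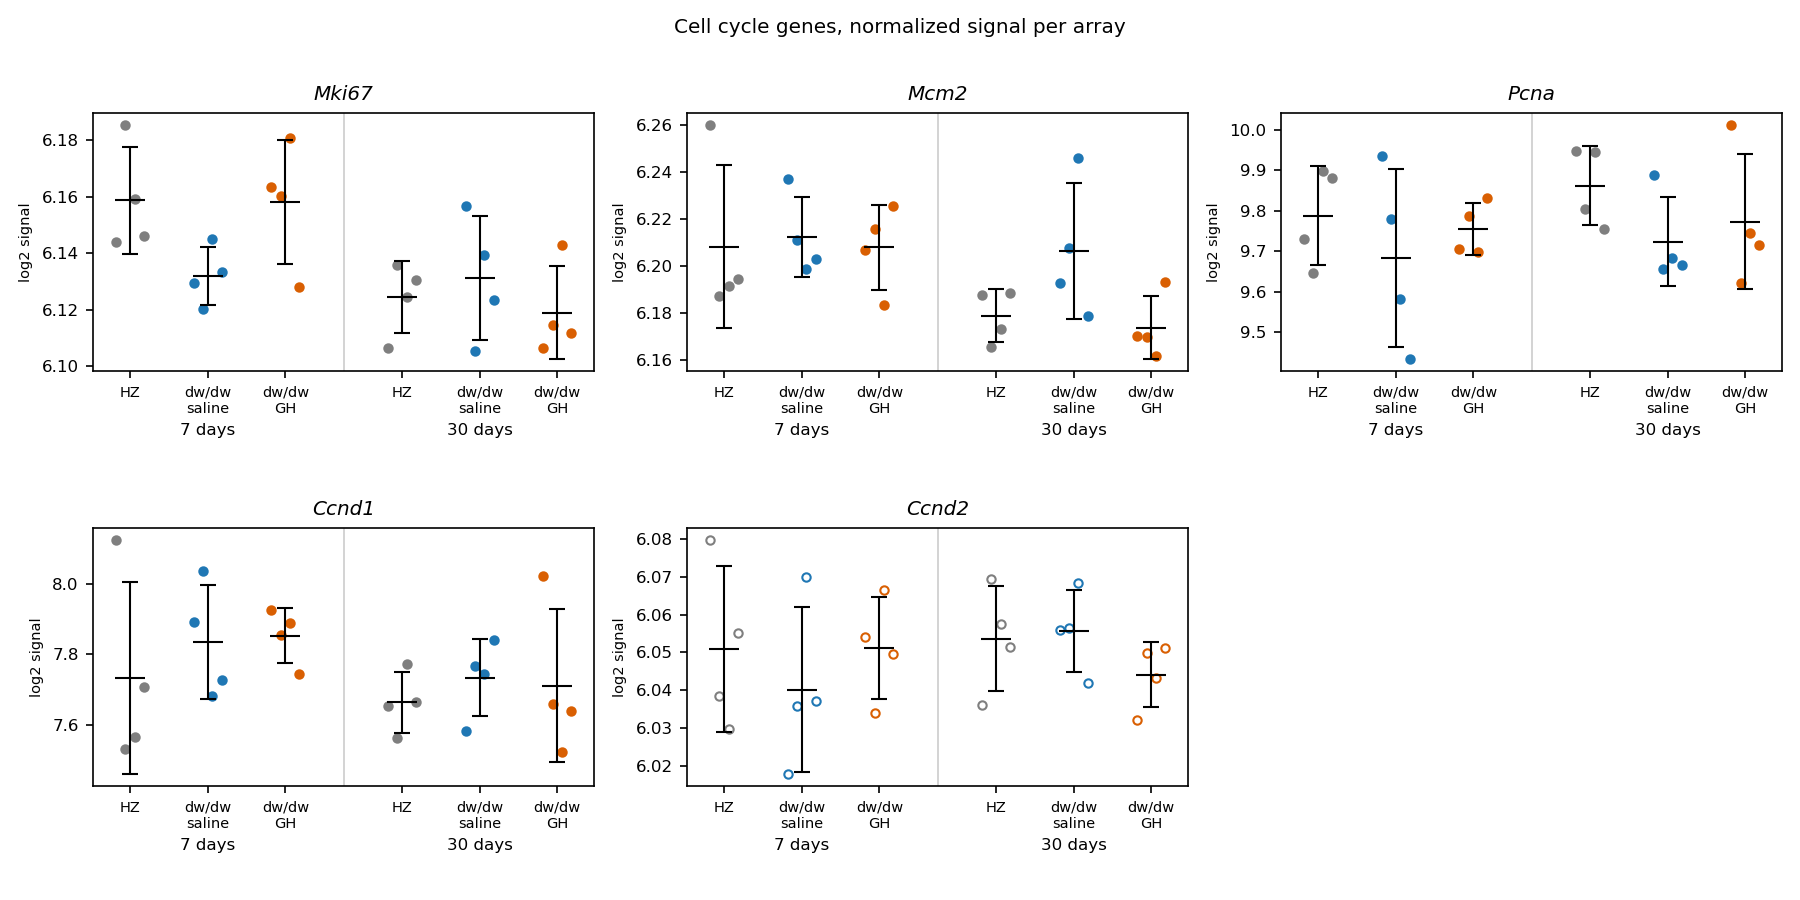
Normalized log2 signal (vertical axes, each probe on its own scale) of Mki67, Mcm2, Pcna, Ccnd1 and Ccnd2 on every array, by group and time point, with the mean and SD of 4 rats as black bars; filled points were detected (detection p-value under 0.05) and open points were not. Mki67 spans only 6.11 to 6.19 over all arrays and was lower at 30 than at 7 days in the mean of the groups, and Ccnd2 was open on all 24 arrays.

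Ccnd1, the D-type cyclin that partners CDK4 and CDK6 in G1 and is the target of many growth signals, did not differ past the threshold, and its values spread widely within groups. At 7 days its log2 signals were 8.12, 7.53, 7.57 and 7.71 in HZ, 7.89, 8.04, 7.68 and 7.73 in saline-treated dw/dw and 7.92, 7.85, 7.89 and 7.74 in GH-treated dw/dw rats. At 30 days they were 7.65, 7.56, 7.77 and 7.66 in HZ, 7.58, 7.77, 7.74 and 7.84 in saline-treated dw/dw and 8.02, 7.66, 7.52 and 7.64 in GH-treated dw/dw rats. All groups overlapped, and the highest value of either age belonged to a single rat that stood above the others of its group. The deficiency difference was 0.10 at 7 days (SE 0.12, adjusted p = 0.943) and 0.070 at 30 days (adjusted p = 0.896), and the GH difference was 0.018 and -0.023 (adjusted p of 0.9999 and 0.9996). The deficiency difference at 7 days was 0.23 without HZ replicate 1 (adjusted p = 0.643) and 0.035 without dw/dw saline replicate 2, and that at 30 days ranged from 0.034 (without dw/dw saline replicate 4) to 0.12 (without replicate 1). The 95% confidence interval of the GH difference at 7 days ran from -0.22 to 0.26.

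Pcna, the sliding clamp that also works in DNA repair, was the brightest probe of the set. At 7 days its log2 signals were 9.73, 9.65, 9.90 and 9.88 in HZ, 9.94, 9.78, 9.58 and 9.43 in saline-treated dw/dw and 9.71, 9.79, 9.70 and 9.83 in GH-treated dw/dw rats. At 30 days they were 9.95, 9.80, 9.94 and 9.75 in HZ, 9.89, 9.66, 9.68 and 9.67 in saline-treated dw/dw and 10.01, 9.62, 9.74 and 9.72 in GH-treated dw/dw rats. At both ages the mean was lowest in dw/dw saline and highest in HZ, and the groups overlapped. The deficiency difference was -0.11 at 7 days (SE 0.095, adjusted p = 0.919) and -0.14 at 30 days (SE 0.095, adjusted p = 0.748). Taken over both ages it was -0.12 (SE 0.067, adjusted p = 0.585), where 0 of 7 members and 0% of probes were called and 0 of 7 members and 1123 probes (9.78%) had an unadjusted p under 0.05. The GH differences were 0.074 and 0.050 (SE 0.095). At 7 days the deficiency difference was -0.19 without dw/dw saline replicate 1 and -0.022 without replicate 4, and the GH difference 0.16 and -0.0097. Over both ages the GH difference was 0.062 (adjusted p = 0.9996), again with 0 of 7 members and 0% of probes called and with 0 of 7 members and 335 probes (2.92%) at an unadjusted p under 0.05. Without dw/dw saline replicate 1 of the 30-day rats, the deficiency difference at 30 days was -0.19 and the GH difference 0.10 (adjusted p of 0.466 and 0.971).

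Mcm2, part of the helicase loaded before S phase, lay between 6.16 and 6.26. Its deficiency difference was 0.0040 at 7 days and 0.028 at 30 days, and its GH difference -0.0044 and -0.033 (SE 0.017, adjusted p from 0.725 to 0.9999). At 7 days the highest array was HZ replicate 1 at 6.26, with the other HZ rats at 6.19, and without it the deficiency difference was 0.021. At 30 days the values were 6.188, 6.166, 6.173 and 6.189 in HZ, 6.193, 6.208, 6.246 and 6.179 in saline-treated dw/dw and 6.170, 6.170, 6.162 and 6.193 in GH-treated dw/dw rats. The dw/dw saline group reached highest and overlapped both others.

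**Figure D3:**
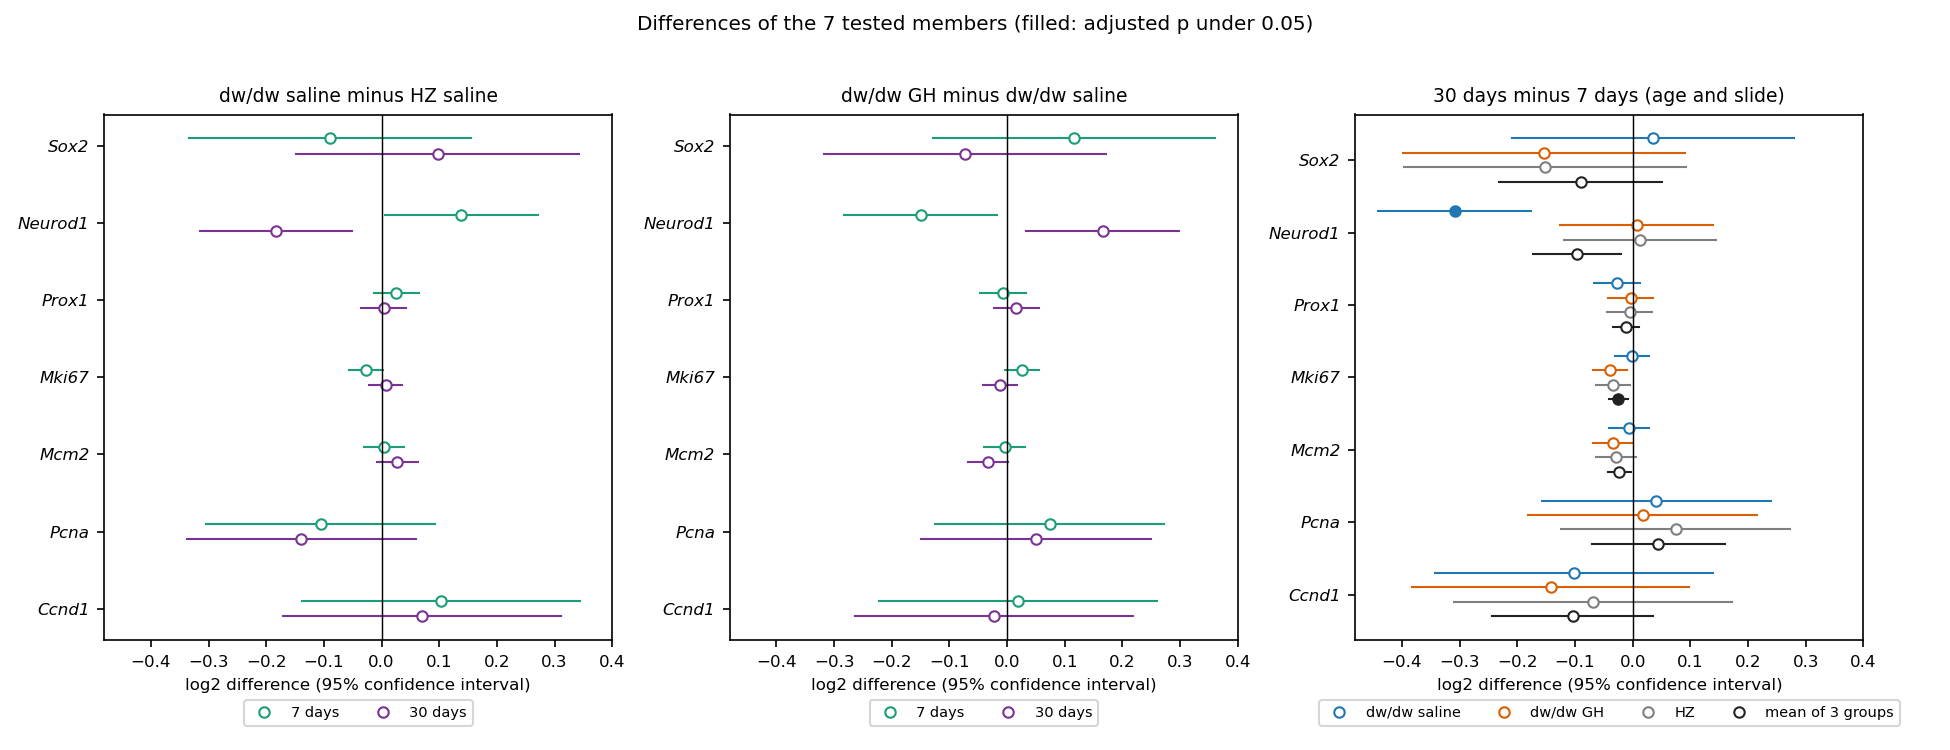
Log2 differences (horizontal axes, with 95% confidence intervals from limma) of the 7 tested members for deficiency (left), GH in dw/dw rats (middle) and 30 against 7 days (right), by time point or group; filled points have an adjusted p under 0.05. In the left and middle panels no point is filled, and the filled points on the right are Neurod1 in dw/dw saline rats (-0.31) and Mki67 in the mean of the 3 groups (-0.025).

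Between the 7-day and the 30-day arrays the proliferation marker Mki67 fell in the mean of the 3 groups. It was the 1 of 7 members past the threshold, beside 15.7% of all tested probes, and many settings below lost its call. In HZ rats its log2 signals were 6.144, 6.185, 6.159 and 6.146 at 7 days and 6.107, 6.136, 6.124 and 6.131 at 30 days. In dw/dw saline rats they were 6.129, 6.120, 6.145 and 6.133 at 7 days and 6.157, 6.105, 6.139 and 6.123 at 30 days. In dw/dw GH rats they were 6.163, 6.160, 6.181 and 6.128 at 7 days and 6.106, 6.114, 6.143 and 6.112 at 30 days. The HZ ages do not overlap, as in 8.61% of tested probes and in 1 of 7 members, whereas those of both dw/dw groups do.

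The mean Mki67 difference was -0.025 (SE 0.0080, 95% confidence interval -0.042 to -0.0080, limma adjusted p = 0.0415). It was -0.034 in HZ (adjusted p = 0.205), -0.00072 in dw/dw saline (adjusted p = 0.992) and -0.039 in dw/dw GH rats (adjusted p = 0.199). Mki67 was the 1 member of 7 called in this comparison, in which 15.7% of tested probes were called, 7.83% higher and 7.9% lower, a share close to that of the members. The size of the difference depended on the background correction, and it was -0.099 for deposited signals normalized without one (adjusted p = 0.0275). The call was lost with median scaling (adjusted p = 0.119) and with the share of probes detected as a covariate (adjusted p = 0.109). It was also lost without any 1 of 16 of the 24 arrays (-0.025 to -0.022, adjusted p up to 0.0745). These were dw/dw saline replicates 1, 3 and 4, dw/dw GH replicates 1, 2 and 3 and HZ replicates 2 and 3 at 7 days, and dw/dw saline replicates 2 and 4, dw/dw GH replicates 1, 2 and 4 and HZ replicates 1, 3 and 4 at 30 days. At 7 days Mki67 differed by -0.027 between dw/dw saline and HZ rats and by 0.026 between dw/dw GH and dw/dw saline rats (SE 0.014, adjusted p of 0.787 and 0.9999). At 30 days these differences were 0.0069 and -0.012.

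The other members differed between the ages by -0.090 (Sox2, SE 0.068), -0.012 (Prox1, SE 0.011), -0.023 (Mcm2, SE 0.0096), 0.044 (Pcna, SE 0.055) and -0.10 (Ccnd1, SE 0.067), with adjusted p of 0.395, 0.503, 0.108, 0.629 and 0.311. The member median was -0.025 against -0.0014 over all probes, and 6 of 7 members had a negative sign. The 12 younger and 12 older arrays overlapped for every member, as for all but 0.357% of tested probes, and in GH-treated dw/dw rats alone no member separated the ages, against 8.19%. Without dw/dw saline replicate 3 of the 30-day rats Mcm2 passed (-0.028, adjusted p = 0.0472), and without HZ replicate 1 of the 7-day rats the differences of Sox2 and Ccnd1 were -0.046 and -0.060. In the series matrix values, which differed by -0.14 between the slides in the median of all probes, 5 of 7 members were called lower, as were 4968 of 11487 tested probes, and Pcna turned to -0.086.

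Other genes of the same pathways were read from 8 lists, in which no gene passed the threshold within a time point. For deficiency and for GH at 7 and at 30 days, 0 genes of any list rose or fell, and the list medians lay between -0.072 and 0.048. Between the ages, genes of several lists passed the threshold, and values are for the mean of the 3 groups unless a group is named. Each list is given with its median log2 difference, which was -0.0014 over all probes, and its counts stand beside 7.83% of tested probes called higher and 7.9% called lower. With median scaling in place of quantile normalization the calls of Ccnb2, Cdc20, Igfbpl1 and Tubb2b held, while those of the other list genes called, Mki67 included, did not (adjusted p from 0.0678 to 0.459). In bulk tissue, fewer cells of a type and less RNA per cell cannot be told apart.

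Of 12 tested genes of the G2 and mitosis list, 3 fell and 0 rose between the ages (median -0.022, 10 of 12 negative), beside 7.9% of all probes called lower. They were Mki67, Ccnb2, a B-type cyclin that activates CDK1, and Cdc20, an activator of the anaphase-promoting complex, whose promoters are printed above. Ccnb2 ranged from 6.21 to 6.34 with a median of 6.27 over the 12 arrays at 7 days, and from 6.16 to 6.21 with a median of 6.19 at 30 days. The younger and older arrays overlapped only slightly. Ccnb2 fell by 0.075 on the log2 scale (SE 0.013, limma adjusted p = 0.000871), and the difference was -0.077 in HZ, -0.064 in saline-treated dw/dw and -0.085 in GH-treated dw/dw rats. Cdc20, detected on 15 of 24 arrays, fell by 0.032 (SE 0.0077, limma adjusted p = 0.00770), from 6.10 to 6.18 at 7 days to 6.08 to 6.11 at 30 days. Its 30-day values lay within the range of the Nes probe (6.05 to 6.11), which was not well above background. Without background correction the differences of Ccnb2 and Cdc20 were -0.23 and -0.14. Both calls held when any single array was left out (adjusted p up to 0.00203 and 0.0153). Top2a had no named probe, and Cdk1 was detected on 7 arrays.

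DNA replication genes, the list of Mcm2 and Pcna, did not share a direction. Of 29 tested, 2 rose and 2 fell (median -0.00054). Rpa2, a subunit of the single-strand binding protein RPA, rose by 0.075 (SE 0.016, limma adjusted p = 0.00374), and Fen1, the flap endonuclease that trims Okazaki fragments, rose by 0.069 (adjusted p = 0.0417). Pold2, a subunit of DNA polymerase delta, fell by 0.095 (adjusted p = 0.0161), and Rfc3, of the clamp loader that places PCNA on DNA, fell by 0.086 (adjusted p = 0.0483). The Fen1 and Rfc3 calls were lost without any 1 of 13 and of 19 arrays (adjusted p up to 0.0747 and 0.0876). The Fen1 difference was 0.18 in GH-treated dw/dw rats (limma adjusted p = 0.0304), 0.041 in HZ and -0.018 in saline-treated dw/dw rats. That of Rfc3 was -0.15 in saline-treated dw/dw, -0.12 in HZ and 0.014 in GH-treated dw/dw rats. Rpa2 and Pold2 kept their sign in every group, and Rpa2 also passed in HZ rats (0.11, limma adjusted p = 0.0452). No probe was called in the interaction comparisons, so these values do not show that the groups differed.

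Of 9 tested G1 cyclins and their partners, the list of Ccnd1, 0 rose and 1 fell (median -0.0077), the growth-promoting transcription factor gene Mycn (-0.15, SE 0.037, limma adjusted p = 0.0110). Of 5 CDK inhibitors and pocket proteins, 0 rose and 1 fell (median -0.013). This was Cdkn1c, the inhibitor p57, with -0.030 (SE 0.0088, limma adjusted p = 0.0242).

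**Figure D4:**
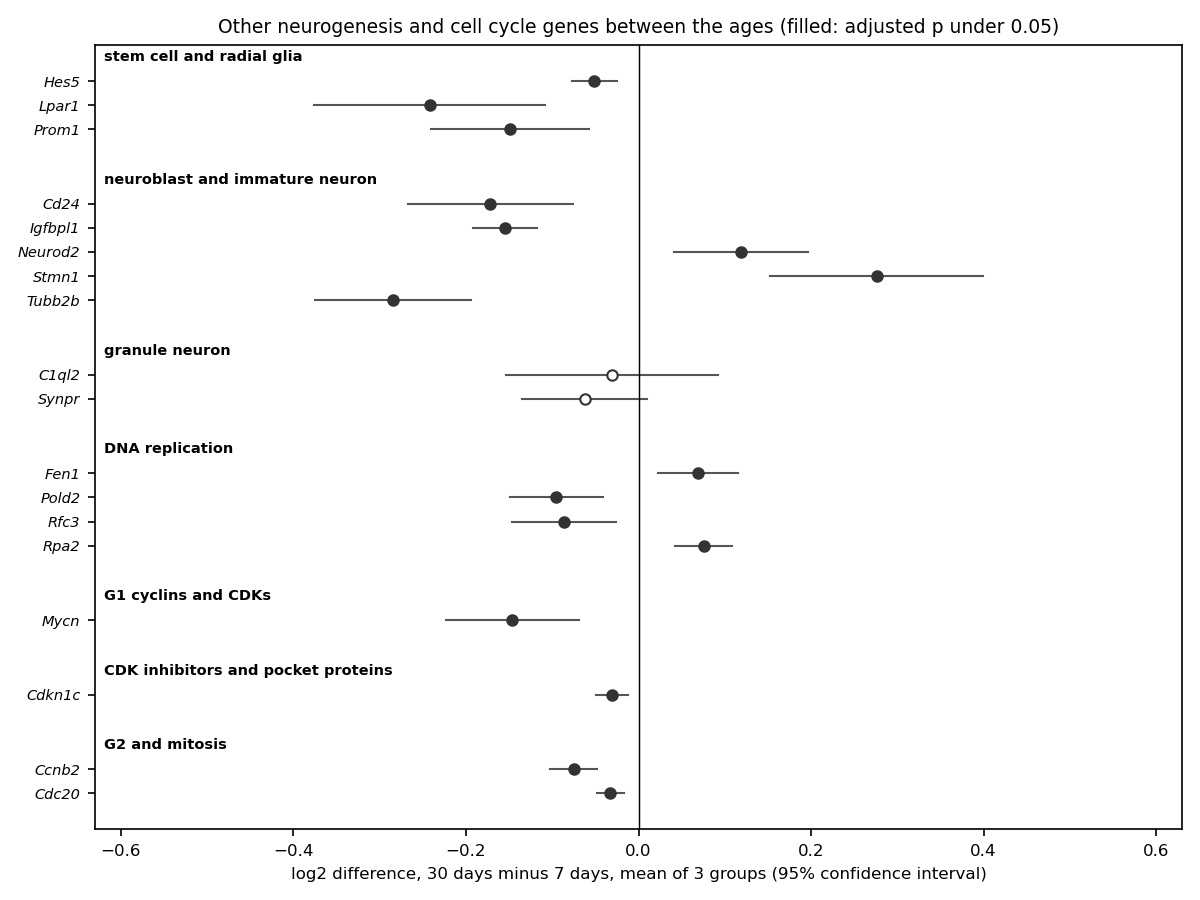
Log2 difference between 30 and 7 days in the mean of the 3 groups (horizontal axis, with 95% confidence intervals from limma) for the other genes of the pathway lists, grouped by list; filled points have an adjusted p under 0.05. The genes drawn were chosen by their calls, so they do not show the direction of a whole list. Left of 0 lie 12 of the filled points, from Tubb2b (-0.28) to Cdkn1c (-0.030). Stmn1 (0.28), Neurod2 (0.12), Rpa2 (0.075) and Fen1 (0.069), also filled, lie right of 0. The 2 granule neuron genes, open, are those with the smallest p of a list with none called.

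Stem cell and radial glia genes, the list of Sox2 and Nes, held 13 tested genes, of which 0 rose and 3 fell (median -0.032, 7 of 13 negative), beside 7.9% of all probes called lower. All 3 calls were lost with median scaling (adjusted p of 0.116, 0.189 and 0.119 in the order below). Hes5, a Notch target that holds progenitors undifferentiated, fell by 0.051 (SE 0.012, limma adjusted p = 0.00873), from 6.24 to 6.33 at 7 days to 6.17 to 6.26 at 30 days. Prom1, the stem cell surface protein prominin, fell by 0.15 (SE 0.044, adjusted p = 0.0263). Lpar1, a lysophosphatidic acid receptor of hippocampal precursors in mice and also of myelinating cells, fell by 0.24 (SE 0.064, adjusted p = 0.0148). Of the intermediate progenitor list, 2 of 7 genes had a named probe and 0 were tested.

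Neuroblast and immature neuron genes, the list of Neurod1 and Dcx, moved in both directions, with 2 of 18 rising and 3 falling (median -0.013), beside 7.83% and 7.9% of all probes. The calls of Cd24, Stmn1 and Neurod2 were lost with median scaling (adjusted p of 0.0678, 0.108 and 0.168). Igfbpl1, which is expressed in young neurons, ranged from 6.62 to 6.77 (median 6.73) at 7 days and from 6.50 to 6.64 (median 6.57) at 30 days, and the arrays of the ages overlapped at the edge. It fell by 0.16 (SE 0.018, limma adjusted p = 1.87e-05), with -0.18 in HZ, -0.16 in saline-treated dw/dw and -0.13 in GH-treated dw/dw rats (adjusted p of 0.0061, 0.0130 and 0.0609). Tubb2b, a beta tubulin of developing neurons, fell by 0.28 (SE 0.043, adjusted p = 0.000254), from a median of 8.70 to one of 8.36. Cd24, a surface protein of neuroblasts, fell by 0.17 (adjusted p = 0.0153). Stmn1, which binds tubulin dimers, rose by 0.28 (SE 0.059, limma adjusted p = 0.00385), and the transcription factor gene Neurod2 rose by 0.12 (adjusted p = 0.0344). The Neurod2 call was lost without any 1 of 8 arrays (adjusted p up to 0.0622). The granule neuron list of Prox1 had 4 tested genes, none of which passed (0 of 4, median -0.021). The synaptic vesicle gene Synpr differed by -0.062 and the complement C1q-like gene C1ql2 by -0.031 (adjusted p of 0.239 and 0.770).

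Markers of other cell types also differed between the 7-day and the 30-day arrays, where age and slide cannot be told apart. Their counts stand beside 7.83% of all tested probes called higher and 7.9% called lower. Of 9 markers listed for early stages of the oligodendrocyte lineage, 5 fell and 1 rose (median -0.079). The differences were -0.30 for Pdgfra, -0.23 for Olig1 and 0.21 for Bcas1. Their summed signal ranged from 4514 to 5322 at 7 days and from 4306 to 5051 at 30 days. Olig1 and Bcas1 were the brightest of them (median log2 of 11.17 and 10.70 at 7 days) and moved in opposite directions. The sum mostly follows these genes and does not stand for precursors alone. Of 11 myelin markers, 5 fell and 0 rose (median -0.23), with sums of 10940 to 15850 and of 9740 to 11630. Of 12 markers of meninges and fibroblasts, 4 fell and 0 rose (median -0.11), with sums of 5668 to 15500 and of 4985 to 12560. Ptgds was by far the brightest of them (median log2 of 12.64 at 7 and 12.29 at 30 days), so these sums mostly follow 1 gene. Of 4 red blood cell markers, 3 fell (median -1.25), with sums of 10920 to 21300 and of 4101 to 8514 that do not overlap between the ages. Among 8 astrocyte markers 1 fell, and among 9 microglia markers 2 fell. Of 3 endothelial markers 1 rose, and 0 of 3 choroid plexus markers passed. Among 9 hippocampal neuron markers 1 rose, Wfs1, and 1 fell, Camk2a. Proliferating oligodendrocyte precursors also express cell cycle genes, and the part of these cell types in the age differences of the members was not tested.

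The genes whose pattern over the 24 arrays was most like that of a member were found after centring each probe on its time point, among 8043 named probes outside the set. For Pcna they were Cycs, cytochrome c (Pearson r 0.87, Spearman rho 0.88), and Chd6 (r 0.84). Sox2 was nearest to Ctnnd1 (r 0.83, rho 0.71) and Aldh7a1 (r 0.75), and Prox1 to Mpped2 (r 0.80, rho 0.64) and Fech (r 0.73). Mki67 was nearest to Ptk2b (r 0.76, rho 0.74) and Shank1 (r 0.73), and Neurod1 to Rragd (r 0.70, rho 0.71) and Ptpre (r 0.67). Ccnd1 was nearest to Lpar1 (r 0.71, rho 0.71) and Yy1 (r 0.69), and Mcm2 to Nfyb (r 0.73, rho 0.45) and Mbp (r 0.69, rho 0.51). Without the 2 arrays farthest from the median of Mcm2 its r values were 0.47 and 0.39, and those of the other partners lay between 0.59 and 0.88. Among the 7 members, the 21 pairs had r between -0.53 (Neurod1 and Sox2) and 0.52 (Sox2 and Mcm2), with a median of -0.020. All arrays of a slide and the normalization are shared by these values, and the highest of many r values is high by selection.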

How the data were processed

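Hippocampal RNA of 24 rats was hybridised to Illumina rat arrays, 1 array per rat. The authors deposited, per the file headers, an average signal (intensity) with its detection p-value for 22226 probes, exported from GenomeStudio 2010.2 per the submitters' processing notes and not background-corrected or normalized as far as the values show. The deposited series matrix, a second processed table with an unstated normalization and some values below 0, served as an alternative, with values under 1 set to 1 here before taking log2. Signals were corrected and quantile normalized here with neqc (limma 3.58.1, R 4.3.3, offset 16), which turned the deposited intensities into log2 values. Probes with a detection p-value under 0.05 on at least 4 arrays (11487, 51.7%) were tested. One limma model with 6 group means was fitted to all of them (18 residual degrees of freedom), with eBayes and Benjamini-Hochberg adjustment over the tested probes at 0.05, in 14 comparisons. The model was tested on simulated data in which changes were added between the ages only. That test does not show which deficiency or GH differences within an age could have been found. The number of arrays limits the precision. Each array is a separate rat per the labels, so p-values measure the spread between rats.

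Symbols came from the platform annotation, in which 13192 probes had 1 symbol and 9034 had none. For a gene with several tested probes the one with the highest mean was used. Members and lists were chosen with earlier results of these data known. Every member was named. From each of 8 pathway lists the genes called in any comparison were named (at most 6 per list and comparison, by p), or, where none was called, the 2 genes besides members with the smallest p between the ages. Likeness took the 2 named genes outside the set with the highest Pearson r. Promoter sequences were RefSeq's (GRCr8). Motifs were searched by exact letters on both strands. Same-numbered rats of different groups share no stated litter or day, and the numbers were not taken as pairs.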

Additional observations from a re-analysis of the deposited data

Results flagged for a closer look

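In 3 of 54 groups of 4 arrays that were examined for members, 1 array stood far from the other 3 by Dixon's test (95% level), which chance gives in about 1 of 20 groups. Sox2 was 7.576 in HZ replicate 1 at 7 days, with the nearest HZ rat at 7.078. Mcm2 was 6.26 on the same array, with the nearest HZ rat at 6.194. On that array the summed signals of the myelin (15850), meninges (15500) and astrocyte (19480) marker lists were the highest of the 24, and 46.39% of probes were detected. The meninges sum mostly follows its brightest gene, Ptgds. Without this array the deficiency difference at 7 days was 0.041 for Sox2 and 0.021 for Mcm2 (limma adjusted p of 0.978 and 0.842). Pcna was 9.888 in dw/dw saline replicate 1 at 30 days, with the nearest rat of its group at 9.684. On that array 49.17% of probes were detected and the myelin markers summed to 10090. Without it the deficiency difference of Pcna at 30 days was -0.19 (limma adjusted p = 0.466). The part of tissue makeup in these values was not tested.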

How the results depend on the processing

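The count of members called stayed at 0 for deficiency and GH within an age under 13 other settings, for their interactions with age and over both ages under the 11 that apply, and without any single array. Probes called in these comparisons numbered 0 in most settings. Exceptions were 1 for deficiency at 7 days with the replicate block, 1 for GH at 7 days, 1 for GH at 30 days and 2 for the GH interaction with the share of probes detected as covariate, and 1 for deficiency at 30 days with the series matrix values and 1 with array weights. For deficiency over both ages 10 were called without background correction, 13 with the stricter filter, 13 with an intensity trend and robust prior, 17 with array weights, 19 with the detected share and 10 with the replicate block. Leaving out 1 array gave 0 to 1 probes for deficiency at 7 days, GH at 7 days and GH-treated against HZ rats at 7 days, 0 to 5 for deficiency at 30 days, and 0 to 43 for deficiency and 0 to 2 for GH over both ages. Rat numbers were not taken as pairs, since the labels state no shared litter or day, so the block is given only here. Of 24 same-numbered pairs, 12 correlated above 0.1 (-0.277 to 0.492), and pairs of different numbers were not compared with them. The 3 pairs of replicate 1 at 30 days lay at 0.422 to 0.492. These arrays had the highest Pcna value and the highest share of probes detected of each 30-day group. The replicate block lost the Mki67 age call (limma adjusted p = 0.0620). Between the ages over all groups, 0 members were called with median scaling, the detected share and the replicate block, against 5 with the series matrix. With the stricter filter the count was 0 too, but Mki67 did not pass that filter and was not tested there. Without 1 array the count was 0 to 2. Probes called were 351 with median scaling and 5224 with the series matrix, whose calls were 4.9% higher ones against 49.8% in the reported setting and 45% with median scaling. Within HZ rats 9 were called with median scaling, 1954 (2 members) with the series matrix, 93 with no filter, 142 with array weights and 164 with the detected share, and 41 to 299 without 1 array. Within dw/dw saline rats these were 7 (0 members) with median scaling, 1656 with the series matrix, 134 with no filter and 477 with the detected share, and 96 to 282 (0 to 1 members) without 1 array. Within dw/dw GH rats they were 15, 1369 (2 members), 42, 256 with array weights and 167 with the detected share, and 34 to 117 without 1 array. Signs turned in some results, of which Fen1 between the ages was called in the reported setting and no member's was. With slide position as covariate, deficiency at 7 days gave Mcm2 -0.02475 and Ccnd1 -0.2799, GH at 7 days gave Prox1 0.003567 and Mcm2 0.009984, deficiency at 30 days gave Prox1 -0.01862, Mcm2 -0.001235 and Ccnd1 -0.3126, and GH at 30 days gave Ccnd1 0.1683. That setting also moved the deficiency difference of Pcna to -0.4462 at 7 and -0.4796 at 30 days without a call. Array weights gave Prox1 0.0005737 and Ccnd1 -0.01657 for GH at 7 days. The detected share gave Prox1 -0.001014 for deficiency and Pcna -0.02503 for GH at 30 days, and between the ages Pcna -0.03223, C1ql2 0.008977 and Neurod1 -0.0133 in HZ and -0.02861 in dw/dw GH rats. The series matrix gave Pcna -0.08571, Fen1 -0.0116 and Neurod1 -0.1081 in HZ and -0.1132 in dw/dw GH rats between the ages. Median scaling gave Neurod1 -0.07602 in dw/dw GH and Mki67 0.001639 in dw/dw saline rats. Without 1 array, ranges that crossed 0 were, for deficiency at 7 days, Sox2 (-0.146 to 0.04137) and Mcm2 (-0.004123 to 0.02134), and for GH at 7 days Prox1 (-0.02339 to 0.003956), Mcm2 (-0.01031 to 0.003769), Pcna (-0.009672 to 0.158) and Ccnd1 (-0.03234 to 0.08559). They were Prox1 (-0.007074 to 0.01013) and Mki67 (-0.001645 to 0.01553) for deficiency at 30 days, and Pcna (-0.03011 to 0.1045) and Ccnd1 (-0.127 to 0.03946) for GH at 30 days. Between the ages they were Neurod1 in HZ (-0.03385 to 0.05665) and dw/dw GH (-0.03284 to 0.06047), Mki67 in dw/dw saline (-0.009253 to 0.007919) and C1ql2 (-0.05928 to 0.00482). The Ccnb2, Cdc20, Igfbpl1 and Tubb2b calls between the ages held under median scaling, which lost those of Hes5, Lpar1, Prom1, Stmn1, Cd24, Neurod2, Rpa2, Pold2, Fen1, Rfc3, Mycn and Cdkn1c. The causes were not tested. Offset 1 was chosen after seeing the data and gave Mki67 -0.031 (adjusted p = 0.0412). Near background, small differences in Prox1, Mki67 and Mcm2, and in the list genes Ccnb2, Cdc20 and Cdkn1c, could not be sized, and Nes and Ccnd2 gave none.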
